A study of Drosophila melanogaster with 12 samples.

Results

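The regions described here are 10-kb bins of the fly genome in which Polycomb was high in the larval central brain and near or below the typical level in the fat body and in glia. They were chosen from the deposited scores themselves, which are log2 ratios of Dam-Polycomb to Dam only per GATC fragment. For each profile the median over all scored fragments was subtracted, so that a centred value of 0 is the typical fragment of that profile and each unit is a doubling. A bin was kept where its centred mean was at or above 3 in brain and below 1 in fat body and in glia, with at least 5 scored fragments in each profile. Of 9816 bins with enough scores on chromosomes X, 2, 3 and 4, 194 met the rule, which is 1.98% of them, and they are called brain-only bins below. The levels in the 3 profiles chose the bins, so they are given as a description and were not tested.

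Polycomb is the chromodomain subunit of Polycomb repressive complex 1. It binds histone H3 trimethylated at lysine 27, the mark laid down by Polycomb repressive complex 2, and the complexes keep developmental regulator genes silent in cells where those genes are not used. In flies the complexes are recruited at Polycomb response elements, and the protein spreads from them over broad domains. In DamID, Polycomb is expressed as a fusion to a bacterial adenine methyltransferase (Dam), which marks GATC sites close to where Polycomb binds, while Dam alone reports how accessible the sites are.

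The study held 12 libraries from 3 larval sources of Drosophila melanogaster, each with Dam-Polycomb and Dam only in 2 biological replicates. All larvae were at the wandering stage of the third instar. Brain libraries came from male central brains dissected without the ventral nerve cord. Their fusion, Dam[4-HT-intein@L127C]-PC, sat behind the promoter FL.hsp70P at the site ZH51C in a y,w background. The intein within Dam responds to 4-hydroxytamoxifen and was left uninduced. Fat body libraries came from males with the same transgene, raised on food with 25 µM 4-hydroxytamoxifen. Glial libraries came from the central brains of males and females together, in a y,w/w background. They carried repoFlp5, a recombinase driven by repo, a gene for a glial transcription factor. It switches on a Dam-PC fusion that sits at ZH51C behind min.hsp70P and the stop cassette STOP#1. The Dam-only controls of each source carried the same construct without Polycomb. A sample was a pool of 20 larvae (brain, glia) or 10 larvae (fat body). The brain profile is an average over neurons, progenitors, glia and other cells of the central brain, so a higher level per cell and a larger share of cells with Polycomb cannot be told apart. Tissue is confounded with induction in the comparison of brain with fat body, and cell type with DamID system and sex in that of brain with glia, so these cannot be told apart either.

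The table holds 1 authors' mean over replicates per fragment and source, so no spread between animals can be given, and the read depth behind the scores is unknown. Of 356504 fragments, the brain profile had a score for 34.4%, the fat body profile for 42.8% and the glial profile for 55.0%. Coordinates are those of dm3, and the bins are named by position only, since the gene tables at hand describe another build. For the same reason neither the tissue labels nor the bins could be checked against marker genes.

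In the brain-only bins the brain level spanned a wide range, while the other profiles were below 1 by the rule and had medians near 0. The centred brain mean ran from 3.04 to 7.30, with a median of 4.30 and quartiles of 3.56 and 5.08. The centred fat body mean ran from -1.80 to 0.97 with a median of 0.06, and the centred glial mean from -1.70 to 0.97 with a median of 0.04. Over all 9816 bins the medians were -0.30 in brain, against 0.23 in fat body and -0.08 in glia. The fat body and glial medians of the brain-only bins therefore lay near the middle of their profiles. Single bins varied, and both values lay within 0.5 of the profile medians in 56 of the 194 (28.9%, against 11.8% of all bins). The rule itself raises this share, since it excludes bins at 1 or more. Of the 6323 bins below 1 in both profiles, at any brain level, 1159 lay within 0.5 of both medians. Fat body and glia were both below 1 in 64.4% of all bins and brain was at or above 3 in 11.5%.

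**Figure D1:**
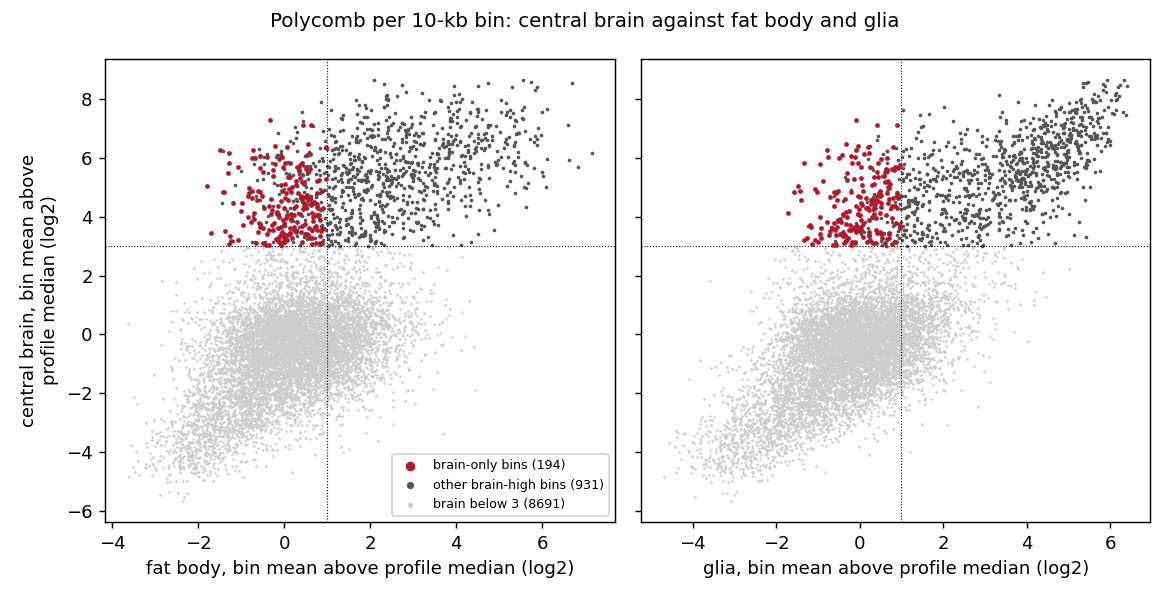
Each point is a 10-kb bin, with its centred mean (log2) in central brain on the vertical axis and in fat body (left) or glia (right) on the horizontal axis, and dotted lines mark the limits of 3 and 1. The 194 brain-only bins lie above brain 3 and left of 1 in both panels, beside 931 other brain-high bins that reach up to 7.15 in fat body and 6.41 in glia.

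**Figure D2:**
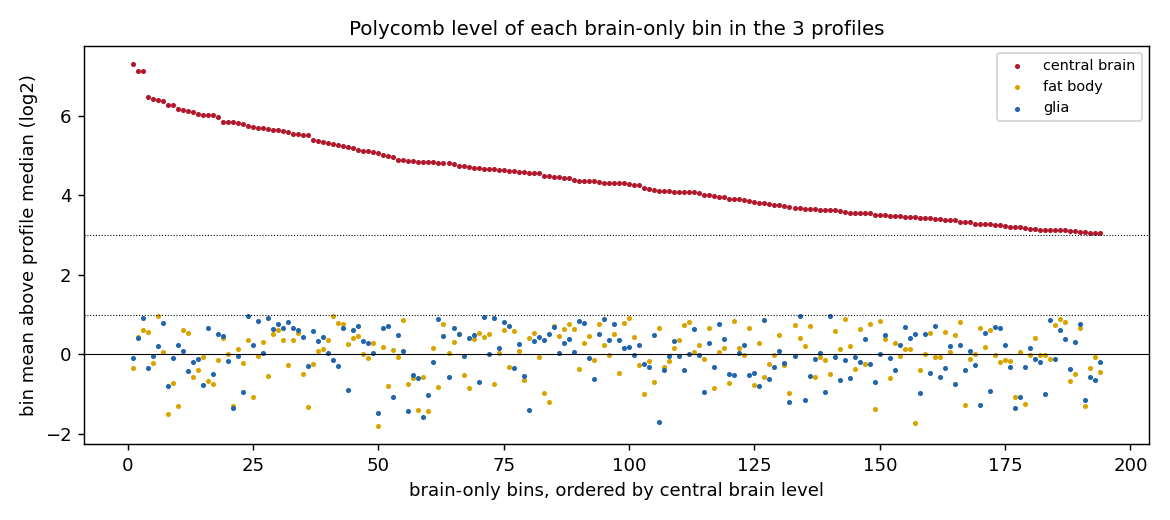
Centred bin means (log2) of the 194 brain-only bins in central brain, fat body and glia, with bins ordered along the horizontal axis by their brain level and dotted lines at 3 and 1. Brain falls along the axis because the bins are sorted by it, from 7.30 to 3.04, while the fat body and glial points stay between -1.80 and 0.97 along the whole order.

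Outside the brain profile the bins lay on either side of the median. Fat body was below its own median in 89 of 194 (45.9%, against 42.3% of all bins), and glia in 91 (46.9%, against 52.4%). Both were below in 50 (25.8%, against 33.3%). All bins include those at 1 or more, which the rule excludes. Of the 6323 bins below 1 in both profiles, whatever their brain level, 3267 were below both medians. Values under -1 were found in 16 brain-only bins in fat body (8.25%, against 16.0% of all bins) and in 15 in glia (7.73%, against 23.8%). Since the rule removed all higher values in those profiles, these shares are a description of what remained under 1.

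Brain-only bins made up 17.2% of the 1125 bins that were at or above 3 in brain (95% Wilson interval 15.2% to 19.6%, which covers the count of bins only). A larger class, 300 bins or 26.7%, was at or above 3 in all 3 profiles, and 233 bins (20.7%) were at or above 3 in brain and glia and from 1 to below 3 in fat body. Only brain and glia reached 3 in 39 bins whose fat body value was below 1. The converse, with brain and fat body at or above 3 and glia below 1, was found in 6 bins. No gap set the brain-only bins apart from their neighbours in level. Among brain-high bins with fat body below 1, the number of bins per unit of centred glial mean was 15 from -2 to -1, 76 from -1 to 0, 103 from 0 to 1, 79 from 1 to 2, 32 from 2 to 3, 23 from 3 to 4 and 16 from 4 to 5. Along fat body, with glia below 1, the counts were 16, 73, 105, 39, 19, 5 and 1 over the same steps.

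Brain-only bins had a lower brain level than the brain-high bins as a whole, as had other classes without a high glial value. Their median brain level of 4.30 compares with 5.51 in the other 931 brain-high bins and 6.30 in the 300 bins high in all 3 profiles. Medians near theirs were found in the 58 bins with fat body from 1 to below 3 and glia below 1 (4.09), the 111 with glia from 1 to below 3 and fat body below 1 (4.55) and the 158 with both from 1 to below 3 (4.67). Brain-only bins made up 33.8% of brain-high bins with a centred brain mean from 3 to 4, 26.4% from 4 to 5, 11.6% from 5 to 6, 6.11% from 6 to 7 and 2.83% from 7 to 8, and none of the 22 bins at 8 or above. Levels in the other profiles had no steady order along these steps. Over the steps from 3 to 8 the fat body medians of the brain-only bins were 0.00, 0.13, 0.16, -0.31 and 0.43, and the glial medians were -0.14, 0.18, 0.44, -0.10 and 0.42, over 79, 64, 34, 14 and 3 bins.

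All 6 arms held brain-only bins. 3R had 53, X had 42, 2L had 36, 3L had 33, 2R had 26 and chromosome 4 had 4. As a share of the bins with enough scores, this was 2.67% on X, 2.13% on 3R, 1.90% on 2L, 1.63% on 3L and 1.49% on 2R. Chromosome 4, the small and largely heterochromatic dot chromosome, had 4.12%, from only 97 bins, of which 27.8% were brain-high. As a share of brain-high bins the arms ran from 14.8% on chromosome 4 to 20.9% on X. The 95% Wilson intervals of those extremes, 5.92% to 32.5% and 15.9% to 27.0%, overlap. They cover counting only and take bins as independent, though many brain-only bins adjoin each other. Differences between arms were not tested.

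The strongest contrasts were measured at bins in which brain exceeded the higher of the other profiles by 6.08 to 7.38. On X from 500001 to 510000 brain was 7.30 (mean of 21 fragments with an SD of 1.24), fat body -0.33 (19 fragments, SD 1.69) and glia -0.08 (25 fragments, SD 1.83). This was the highest brain value of all 194 bins. On 3R from 4510001 to 4520000 brain was 7.11 (SD 0.96, 16 fragments), fat body 0.43 and glia 0.42. On 3R from 5890001 to 5900000 brain was also 7.11 (SD 1.33, 17 fragments), with fat body at 0.61 and glia at 0.90, close to the limit. On 3R from 14090001 to 14100000 brain was 6.27 (SD 2.14, 20 fragments), fat body -1.49 and glia -0.79. There the other profiles were well under their medians, as they were on X from 12500001 to 12510000, where brain was 5.83, fat body -1.28 and glia -1.34. The SD over brain fragments in that X bin was 4.91, which is the spread between a low and a high part of the bin described further on.

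The remaining bins of that group had similar levels on other arms. On 2R, the bin from 19770001 to 19780000 had 6.01 in brain, against -0.74 in fat body and -0.49 in glia. Next on that arm, from 9420001 to 9430000, brain was 6.26, fat body -0.72 and glia -0.08. On 3R, the bin from 9880001 to 9890000 had 6.42 in brain, against -0.21 in fat body and -0.03 in glia on 27 to 31 scored fragments, the best covered of the set. The bins on 3R from 160001 (brain 6.09, fat body -0.57, glia -0.20) and from 25850001 (6.03, -0.05 and -0.76) and on X from 2330001 (6.04, -0.40 and -0.11) completed the set with a chromosome 4 bin. Over the set, which was chosen for its large differences, the lowest brain mean was 5.05 and the highest fat body or glial mean 0.90.

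On chromosome 4 all 4 brain-only bins can be given. The bin from 100001 to 110000 had 5.05 in brain, against -1.80 in fat body and -1.48 in glia. Its neighbour from 90001 had 3.91, -0.71 and -0.48. Together they filled a brain domain of 18.5 kb. Beyond them brain was -4.06 in the bin from 80001 and -1.30 in the bin from 110001, so the pair stood alone. The bin from 980001 had 5.19 in brain, against 0.41 in fat body and 0.61 in glia. In the bin from 870001 these values were 3.40, -0.07 and 0.71. Unlike the pair, both of these bins lay at an end of a longer brain domain that was raised in the other profiles. Around the bin from 980001 the domain means were 5.26 in brain, against 2.47 in fat body and 2.95 in glia. Around the bin from 870001 they were 5.38, 2.44 and 4.23.

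Most brain-only stretches were short. Joining adjacent bins gave 132 stretches, of which 94 were a single bin, 23 were 20 kb long, 11 were 30 kb, 1 was 40 kb, 2 were 50 kb and 1 was 70 kb. A bin without enough scores also ended a stretch, as on 41 of the 264 sides. Some stretches may therefore be parts of longer ones. The longest, on 3L from 7410001 to 7480000, was a low plateau, with a mean of 3.42 in brain (bins from 3.05 to 4.30), 0.40 in fat body and -0.09 in glia. Its surroundings differed by side. The bin from 7390001 had 2.97 in brain and 3.45 in glia but 0.38 in fat body, and the bin from 7490001 had 4.55 in brain and 3.80 in fat body but -0.40 in glia. The 7 brain-only bins thus lay between a glial rise on one side and a fat body rise on the other, with brain at 1.85 or higher across all of it.

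The 50-kb stretch on 3R from 9880001 to 9930000 was higher, with a mean of 5.04 in brain, against 0.10 in fat body and -0.21 in glia. Brain dropped from 4.56 in its last bin to -0.15 in the next, while fat body (0.54 and -0.30) and glia (0.33 and -0.49) moved by less than 1. The 50-kb stretch on 2L from 5550001 to 5600000 averaged 3.68 in brain (bins from 3.32 to 3.98), against -0.20 in fat body and -0.35 in glia. On X the stretch from 20590001 to 20630000 had 4.91 in brain, against 0.36 in fat body and 0.29 in glia, with only 5 to 9 scored fat body fragments per bin. On 2R from 4150001 to 4180000 the means were 5.77 in brain, against 0.47 in fat body and 0.30 in glia. On 3L from 5860001 to 5890000 they were 5.60, -0.13 and -0.05, and the 5 bins before it were at 1.75 to 2.55 in glia and from -0.86 to 0.69 in fat body.

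**Figure D3:**
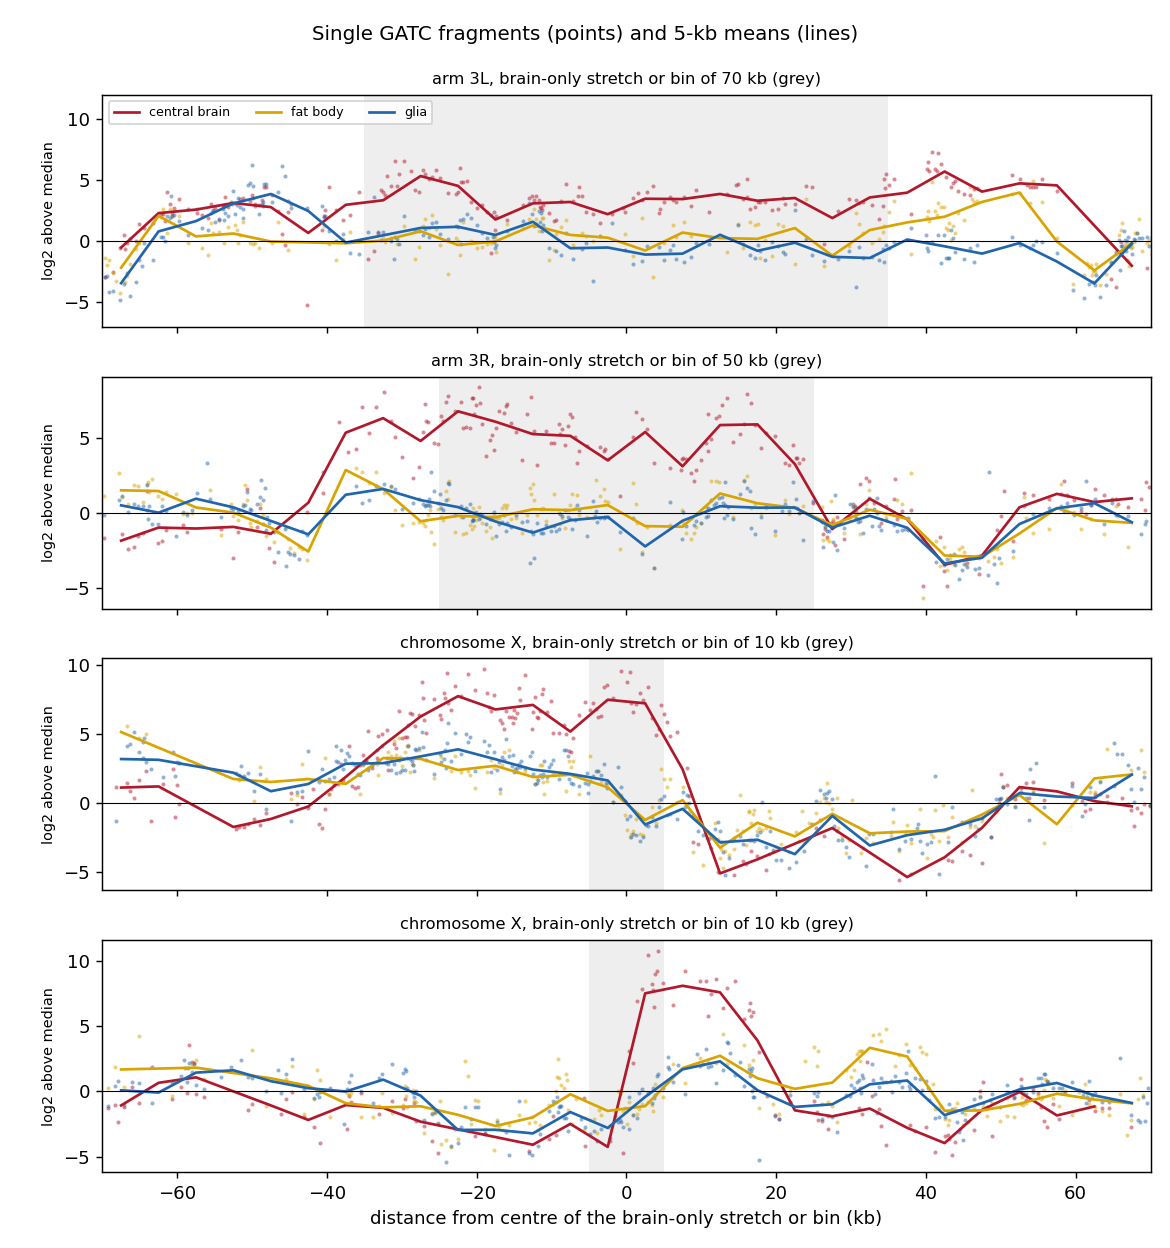
Single GATC fragments (points) and their 5-kb means (lines) in central brain, fat body and glia, as log2 above each profile median, against distance in kb from the centre of 4 brain-only stretches or bins (grey): the 70-kb stretch on 3L, the 50-kb stretch on 3R, and the X bins from 500001 and from 12500001. Brain stays above the other profiles across both long stretches, whereas the X bins lie at an end of a brain domain, where brain changes over a few kb.

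Around the stretches the median brain level came down with distance, while the medians of the other profiles moved little. Inside the stretches brain is at or above 3 by the rule, so the step to the first flanking bin is in part built in. At 10 kb the median centred brain mean was 2.26 (quartiles 0.23 and 4.48, 223 sides of stretches with enough scores), at 20 kb 1.95, at 30 kb 0.83, at 40 kb 0.21 and at 100 kb -0.03. In fat body the median was 0.11 at 10 kb and 0.31 at 100 kb, and in glia -0.01 and 0.07. The quartiles of glia at 10 kb, -1.29 and 1.14, were wider than those inside the stretches, -0.39 and 0.49. Inside, the rule had removed values of 1 and over but had set no lower limit. Brain was at or above 3 in 35.0% of the neighbouring bins, against 11.5% of all bins. The share was 37.3% at 20 kb and 18.6% at 100 kb. From 20 kb on, the flanking bins include members of other brain-only stretches, 34 of 228 at 20 kb, 30 of 239 at 30 kb and 19 of 235 at 40 kb. Without them the brain medians were 1.23, 0.32 and 0.06 at those distances, the fat body medians 0.20, 0.20 and 0.15, and the glial medians -0.10, 0.00 and -0.03.

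**Figure D4:**
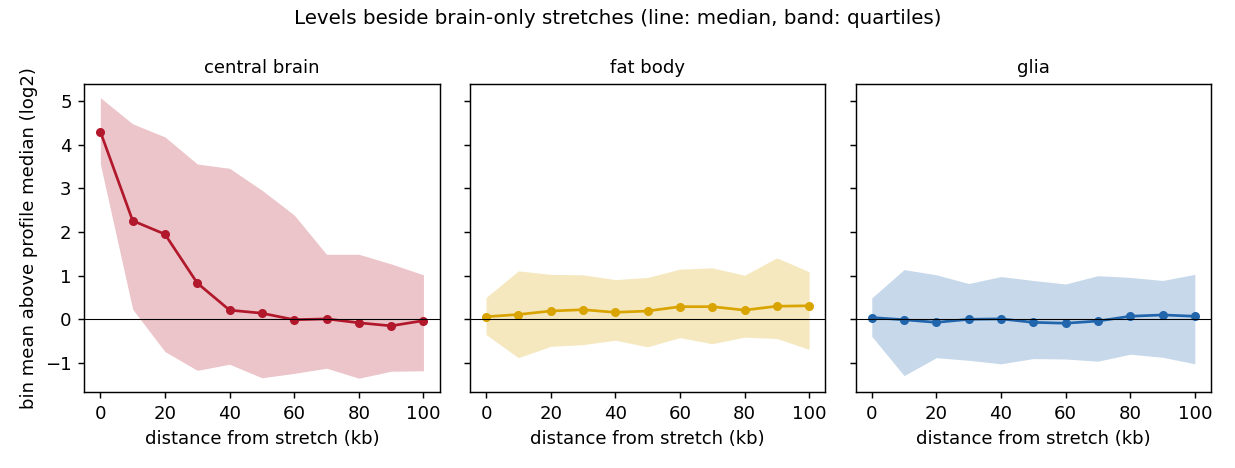
Median (line) and quartiles (band) of centred bin means (log2) in central brain, fat body and glia by distance in kb from the edge of a brain-only stretch, with the stretch itself (194 bins) at 0 and 221 to 239 sides at each distance, bins of other brain-only stretches included. Brain, at or above 3 inside the stretch by the rule, falls to 2.26 at 10 kb and 0.21 at 40 kb. Fat body stays between 0.06 and 0.31 and glia between -0.09 and 0.10.

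Many stretches bordered brain-high bins of another class. Of the 223 neighbouring bins, 145 had brain below 3 and 78 had brain at or above 3. An adjacent bin low in both other profiles would have been part of the stretch, so each of the 78 was at 1 or more in fat body or glia. Neither profile reached 3 in 69 of them (88.5%), against 327 of the 931 other brain-high bins (35.1%). Of the 69, 30 had glia from 1 to below 3 with fat body below 1, 25 had fat body from 1 to below 3 with glia below 1, and 14 had both from 1 to below 3. Only 9 reached 3 in glia and 3 reached 3 in fat body. Among 94 stretches with scores on both sides, brain was below 3 on both sides of 35, on one side of 51 and on neither side of 8. The nearest brain-high bin outside the class was adjacent for 70 of 132 stretches and over 100 kb away for 37. The nearest bin high in all 3 profiles, which is one of those classes, lay at a median distance of 375 kb, was adjacent for 3 stretches and over 100 kb away for 106.

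Whether the brain-only bins form domains of their own or parts of larger ones was asked with brain domains called by a hidden Markov model of 2 states along the scored fragments. It gave 307 brain domains. Of the 194 bins, 179 lay by at least 50% of their length in one, and 93 domains held them. In 29 of those domains every bin with enough scores that lay at least 50% inside was brain-only. Of these 29, 15 held a single scored bin, 11 held 2 and 3 held 3 or more, and the condition is more easily met by a short domain. Their median length was 14.9 kb (6.54 to 44.1 kb), and their median centred mean over fragments was 5.22 in brain, against 0.16 in fat body and 0.01 in glia. The 170 domains with scored bins but no brain-only bin had a median length of 30.6 kb and medians of 4.84 in brain, against 2.04 in fat body and 3.21 in glia. Among domains with a single scored bin, the median length was 10.9 kb in the 15 brain-only ones and 10.2 kb in 46 without such a bin, and the median brain level was 5.24 in the 15 and 3.81 in the 46. The rule held every scored bin of the brain-only domains at or above 3 in brain and set no such limit on the others. Their brain levels are therefore not a like comparison. Nor are the fat body and glial levels. The rule kept both profiles below their limit in every scored bin of the brain-only domains. In the 170 domains, any scored bin at or above 3 in brain had to reach that limit in fat body or glia. The lower fat body and glial medians of the 29 are therefore in part built in.

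Examples of domains in which every scored bin was brain-only were found on several arms. Bins without enough scores inside them were not judged. On 3R from 4503623 to 4540341 the centred mean over fragments was 6.37 in brain, against 0.56 in fat body and 0.61 in glia. On 3R from 14082127 to 14099357 it was 6.60 in brain, against -0.45 in fat body and 0.22 in glia, and on 3R from 20613837 to 20626072 it was 6.15, 0.36 and -0.01. On 3L from 5855298 to 5889862 it was 5.15 in brain, against -0.03 in fat body and 0.15 in glia. On X from 3385929 to 3430044 lay the longest of the 29, a weaker domain with 3.74 in brain, against 0.81 in fat body and 0.13 in glia. Over all 29 domains the fat body mean ran from -1.06 to 0.87 and the glial mean from -1.04 to 1.44. The glial mean was at or above 1 in 4 of them, a domain's mean being taken over the fragments within the domain and not over whole bins.

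The other 64 domains mixed brain-only bins with bins of other classes and were longer, with a median of 40.5 kb and up to 335 kb. They held 133 brain-only bins among 423. At least 1 bin reached 3 in fat body or glia in 21 of the 93 domains, in glia in 18 and in fat body in 17. In the 51 mixed domains with 3 or more scored bins, 46 of 102 end bins (45.1%) were brain-only, against 74 of 295 interior bins (25.1%). End bins were also lower in all profiles, with a median brain level of 3.85, against 4.78 in interior bins. An end bin needed only 50% of its length inside the domain, and bin levels are means over whole bins. Fragments beyond the domain can thus lower them, and this part was not separated. Fat body had medians of 0.39 in end bins and 1.25 in interior bins, and glia 0.32 and 1.69.

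A few long domains held many of the bins. The 8 domains with 5 or more held 51 of the 194, among 100 scored bins. On 2R from 4140209 to 4282477, a domain of 142 kb, 7 of 11 bins were brain-only, and the means over the domain were 4.37 in brain, against 0.26 in fat body and -0.21 in glia. On X from 3863869 to 3990028, 5 of 8 bins were, with 3.62 in brain, against 0.16 in fat body and 0.01 in glia. In the 2R domain 1 bin reached 1 in fat body and 1 in glia, in the X domain 1 did in fat body, and none reached 3 in either profile. On X from 20395518 to 20630345, by contrast, 8 of 15 bins were brain-only and 7 had glia at or above 1, and on 3R from 26428415 to 26614512 it was 8 of 17 and 7. The longest, on X from 7236802 to 7571779, held 5 brain-only bins among 27, of which 9 reached 3 in fat body and 4 in glia.

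Within the bins, most scored fragments were high in brain, though fewer than in the other brain-high bins. Of 3123 scored brain fragments 81.0% were at or above 3, against 91.1% in the other brain-high bins and 16.8% in all bins. Those below 1 made up 5.25%, against 1.44% in the other brain-high bins. Of 2434 scored fat body fragments 3.00% were at or above 3, against 7.74% of those in all 9816 bins, and of 3425 glial fragments 1.81%, against 8.76%. All brain fragments were at or above 3 in 33 bins, and under 50% of them in 3. No fragment reached 3 in fat body in 147 bins, in glia in 162, and in either in 123. Fragments of a bin share their place and libraries and are not replicates. They also make up the bin means the rule used, so the differences from other bins are in part built in.

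The same scores can be read fragment by fragment, as a description, since their bin means chose the bins. At the 1618 fragments of the brain-only bins that were scored in all 3 profiles and at or above 3 in brain, the median was 0.22 in fat body and 0.18 in glia, and 59.3% were below 1 in both, against 4.80% of 9221 such fragments in the other brain-high bins. Only 18 of them reached 3 in glia and 64 in fat body. At the 133 such fragments with brain below 1, fat body and glia were lower, each with a median of -1.43. The bin means average over both kinds of fragment. In 152 of the 194 bins fat body and glia both averaged below 1 at the brain-high fragments themselves, and in 42 at least one of them was at 1 or more, fat body in 31 and glia in 20.

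The highest of these averages lay in bins where the brain score changes within the bin. In 20 bins the SD of brain over fragments was 3 or more, against a median of 1.34 over the 194 bins. In 11 of those 20 fat body averaged 1 or more at the brain-high fragments, and in 8 glia did. Together these were 12 of the 42 bins, and the other 30 had a smaller SD. On 3R from 2480001 to 2490000, at the edge of the longest brain domain, the bin means were 3.44 in brain, against -1.71 in fat body and 0.50 in glia. At its brain-high fragments, however, fat body averaged 4.22 and glia 3.97. On X from 17710001 to 17720000 those averages were 3.81 in fat body and 4.22 in glia, and on 3R from 26880001 to 26890000 they were 2.37 and 3.10. These 3 bins met the rule as bins while their brain-high fragments were high in glia too. The bin on X from 12500001 differed. Its brain fragments ran from -4.69 to 10.79, and at the high ones fat body averaged -0.84 and glia -0.10.

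**Figure D5:**
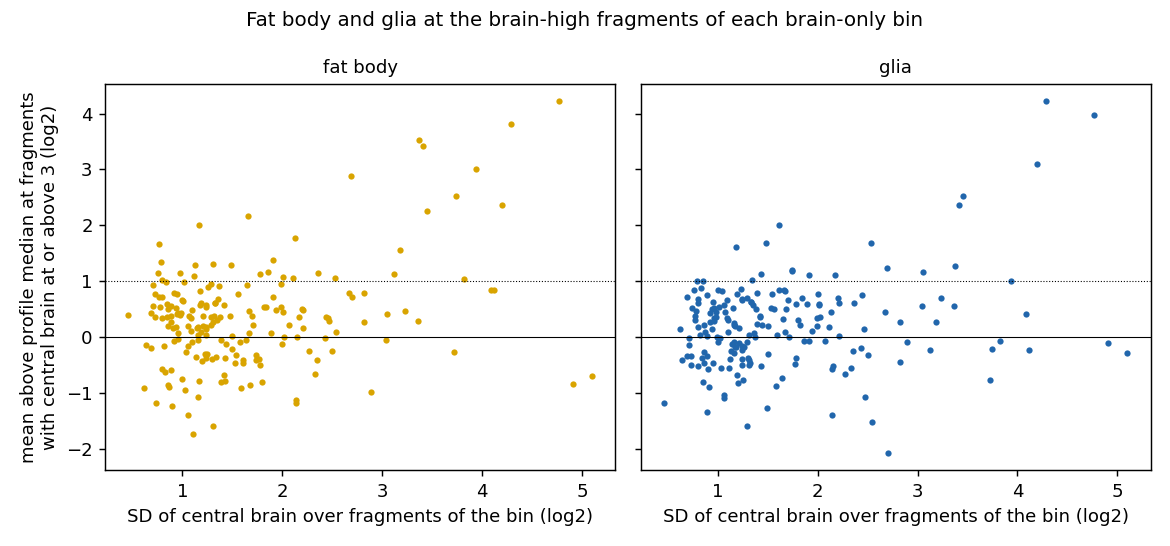
For each brain-only bin, the SD of the centred brain scores over its fragments (log2, horizontal axis) and the mean in fat body (left) or glia (right) at its fragments with brain at or above 3 (log2 above the profile median, vertical axis), with a dotted line at 1. Most bins lie below 1 in both panels, and the highest fat body (4.22) and glial (4.22) values belong to bins with an SD of over 4.

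The number of fragments per bin was alike in the brain-only bins and the rest, and the share with a brain score was higher. A brain-only bin had a median of 26 GATC fragments, against 28 in the other brain-high bins and 26 in all bins. The median share scored was 66.7% in brain, against 59.5% in the other brain-high bins and 48.6% in all bins. It was 46.9% in fat body, against 42.9% and 52.9%, and 66.7% in glia, against 73.0% and 69.1%. Fat body means rested on fewer than 10 scored fragments in 75 of the 194 bins (38.7%, against 31.8% of all bins). The part of coverage in the low fat body values was not tested.

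The limits of the class are not sharp against the scatter of a bin mean. That scatter, from odd and even fragments of the same bin, was 0.28 in brain, against 0.34 in fat body and 0.22 in glia in the brain-only bins. The class also moved with the scaling between profiles, and 91 bins met the same limits after quantile normalization of the 3 profiles. Over all bins the SD of the bin means was 2.40 in brain, against 1.42 in fat body and 1.68 in glia. The same log2 limits therefore do not stand equally far out in each profile. In 62 of the 194 at least one of the 3 means lay within the scatter of its profile of a limit, and in 132 none did. One scatter per profile was used for every bin, so bins with a large SD over fragments can count among the 132. An example is the bin on 3R from 12810001, with 3.34 in brain and an SD of 5.10 over 8 fragments. The 132 are therefore not all clear of the limits. Just inside the brain limit were the bins on 2L from 9070001 (3.04), 2R from 16860001 (3.04) and 3L from 7440001 (3.05), and just outside it those on 3R from 26100001 (2.996), X from 18500001 (2.991) and X from 21340001 (2.985). Fat body was 0.97 in the bin on 2L from 16870001, 0.96 in that on 2R from 5340001 and 0.91 in that on X from 18430001, and just outside it was 1.02 on X from 3980001, 1.04 on 3R from 6280001 and 1.04 on 2L from 19090001. Glia was 0.97 in the bin on 3L from 15030001 and 0.96 in those on 3R from 26670001 and from 26710001, and just outside it was 1.01 on 2L from 21320001, 1.02 on 3L from 4160001 and 1.03 on 3R from 7130001.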

How the data were processed

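DamID-seq libraries of 3 larval sources were deposited as 1 table, whose values are log2 ratios of Dam-Polycomb to Dam only per GATC fragment, each the authors' average of the replicates, per the file headers. The submitters' processing notes name cutadapt, Bowtie2, HTSeq and the build dm3. Why a fragment has no score is not stated in what was used here. With 1 value per fragment and source there are no replicate errors, no depths and no tests over animals. SDs are over fragments, and intervals cover counting only.

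Scores were centred on the median of each profile over all scored fragments. Bins of 10 kb took fragments by their start. Brain domains came from a hidden Markov model with 2 states (Student t emissions, 4 degrees of freedom, Viterbi path, runs of at least 5 scored fragments). Scatter compared means of odd and even scored fragments, with at least 3 of each. Named bins are the 12 with the largest difference between brain and the higher other profile (1 per stretch), the 6 longest stretches, chromosome 4 and the bins nearest each limit. The domains, flanking bins and edge bins named were picked with their values in view. The members and lists were chosen with earlier results of these data known. Marker and gene lists could not be placed without a gene annotation in dm3 and were not used. Both procedures were tested on simulated scores. Work was done in Python 3.11.15, numpy 2.4.6, pandas 2.3.3, scipy 1.17.1 and numba 0.67.0.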

Additional observations from a re-analysis of the deposited data

How the results depend on the processing

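No paired analysis was possible because the deposited table holds means over replicates, so leaving out a replicate was not run either. The 194 bins became 115 with at least 10 scored fragments per profile, 91 after quantile normalization, 82 with limits of 3.5 and 0.5, and 341 with limits of 2.5 and 1.5. The 132 stretches became 70 after quantile normalization and 63 with limits of 3.5 and 0.5. The 17.2% of brain-high bins became 10.7% after quantile normalization, 8.1% with limits of 3.5 and 0.5 and 27.4% with limits of 2.5 and 1.5. The 81.0% of brain fragments over the limit became 79.1% with bin medians, 72.5% after quantile normalization, 79.5% and 83.1% with the stricter and the looser limits, and 74.4% without centring. Stricter limits and more scored fragments leave fewer bins by construction, and for quantile normalization the cause was not tested. The other 24 of 38 values stayed within 1.5 times or within the counting interval, among them the 93 brain domains with a 3-state model. Of the 194 bins, 170 were kept with bin medians, 171 with fragments of 200 to 2000 bp, 152 with fragments scored in all 3 profiles, 144 overlapped a bin of a grid shifted by 5 kb, 100 were kept without centring and 91 after quantile normalization.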

Other observations

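A further 63 bins were at or above 3 in brain but had fewer than 5 scored fragments in another profile, in 62 of them in fat body. Glia was scored in 60 of the 63 and was below 1 in 23. Those 23 bins could not be placed inside or outside the brain-only class from these scores. Nor could any of the 3 bins short in glia that were short in fat body too. The 194 are therefore a count of the bins that could be judged.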
